A study of Mus musculus with 27 samples.

Results

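Cells of the hindlimb muscle that had expressed Prx1 were compared between 2 sorted subpopulations, P2 (CD105- CD200-) and P3 (CD105+ with variable CD200), and all genes were compared in 3 libraries against 3. These are 6 of the 27 libraries of the series, which also holds P1 (CD105- CD200+) of muscle and the same subpopulations of periosteum and bone marrow. All cells came from Prx1-CreER/Ai14/Rag1 mice of either sex, 8 to 12 weeks old. The Prx1 promoter drives a tamoxifen-inducible Cre in these mice, and Ai14 is a tdTomato reporter that Cre switches on for good. The Rag1 allele, which every group shares, leaves the mice without mature B and T lymphocytes. Cells were taken 3 days after the last of 2 doses of tamoxifen, so tdTomato marks cells that used the Prx1 promoter around that time and whatever they gave rise to. Muscle around the femur was dissected from tendon to tendon, cleared of fat and tendon, minced and digested, and tdTomato+ CD45- cells were sorted. The legend of the study gives 3 mice per group and the deposited description says that samples shared animals, but not which animal gave which library. The p-values below therefore measure the spread between these libraries and treat them as independent.

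Prx1 (gene symbol Prrx1) is a homeobox factor of limb mesenchyme. In adult muscle its lineage is found in the connective tissue between the fibres, where fibro-adipogenic progenitors, marked by Pdgfra, Ly6a (Sca-1) and Cd34, make collagen and proteoglycans. Muscle fibres themselves come from another lineage. They are filled with sarcomeres, in which myosin thick filaments pull on actin thin filaments when the sarcoplasmic reticulum releases calcium, and they burn phosphocreatine, glycogen and oxygen to do so. CD105 (endoglin, Eng) is a co-receptor for TGF-β and BMP ligands that is best known from endothelium, and CD200 is a membrane glycoprotein of the immunoglobulin superfamily.

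The gates were read first, as a check of the labels and not as a result. Eng (chr2:32646595-32682669, GRCm38) had normalized counts of 569, 364 and 146 in P2 and 6067, 5621 and 4523 in P3. Cd200 (chr16:45382135-45409053) was at 10.3, 1107 and 69.5 in P2 and 8339.8, 6525 and 6947 in P3. Every P3 library lay above every P2 library in both genes, but replicate 2 of P2, sorted as CD200-, held more Cd200 than the other two P2 libraries and reached the range of P1 (1025 to 3274). Ptprc, which encodes CD45, lay between 25.6 and 118 in P2 and between 15.5 and 35.7 in P3 and was not a DEG (log2 fold change 1.43, SE 0.78, adjusted p = 0.177). Replicate 2 was the only P2 library within the range of P3, and without it Ptprc was a DEG higher in P2 (log2 fold change 2.11, adjusted p = 0.0415). Prrx1 (chr1:163245119-163313710) was at 1146, 878 and 2371 in P2 and 712, 934 and 808 in P3, and the row of the table named TRANSGENES at 26650.5, 27124 and 15527 in P2 and 5387, 14708 and 15831 in P3. Neither was a DEG (adjusted p = 0.121 and 0.0625), and both were detected in all 6 libraries. Levels of these sorting genes in all 9 muscle libraries open the plot of single genes.

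**Figure D1:**
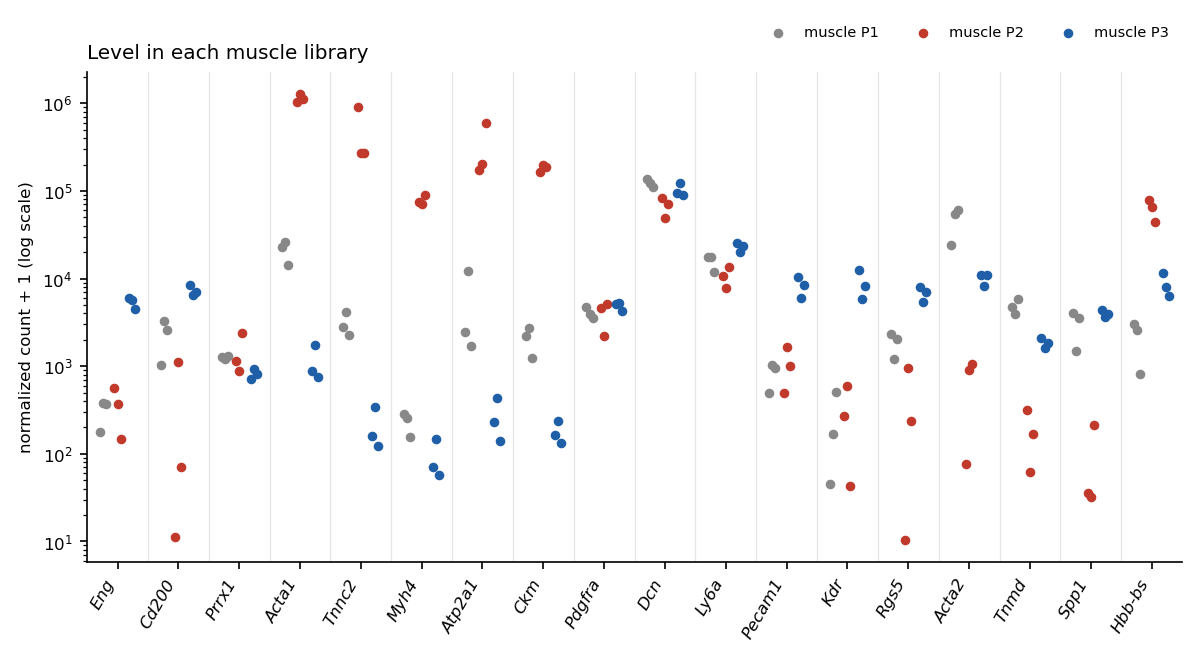
Normalized count + 1 (log scale) of 18 genes in each of the 9 muscle libraries, 3 points each for P1 (grey), P2 (red) and P3 (blue). The 5 muscle fibre genes from Acta1 to Ckm are highest in P2, the vessel genes Pecam1, Kdr, Rgs5 and Acta2 are lower in P2 than in P3, and Pdgfra overlaps between P2 and P3.

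Of 13974 genes tested, 1915 were higher and 2010 lower in P2 than in P3 (DEGs: an adjusted p of less than 0.05 with a log2 fold change of more than 1.5 either way). That is 13.7% and 14.4% of the genes tested, 28.1% together. These shares are the background for counts of muscle P2 against P3 below that use the deposited values and all libraries. Other settings have other backgrounds over the same 13974 genes. With 1 library left out, 1700 to 1974 genes were higher and 1459 to 2350 lower in P2. Without P2 replicate 2 the counts were 1850 and 2118. Over all of these genes the median of the fold changes was -0.37 on the log2 scale, beside which the medians of gene groups are read. In 50.3% of all genes tested the P2 and P3 libraries did not overlap. After rescaling every library to the same total that median moved to -1.09 and the split to 1160 higher and 4044 lower, since P2 libraries summed to between 18148837 and 18837251 normalized counts and P3 libraries to between 10563364 and 11509951. Replicates correlated across genes with Pearson's r of 0.795 to 0.814 in P2 and 0.924 to 0.933 in P3, so the P2 libraries were the less alike. The commonest low value of each library was taken as 1 read, at 0.546 to 1.01 normalized counts. That puts the depth at about 14100000 to 25200000 reads, so values of a few units rest on single reads. Of values below 10, 46.2 to 54.9% in P2 and 68.8 to 87.7% in P3 were whole multiples of it. Both estimates are therefore rough, more so in P2. In sorted bulk samples, fewer cells of a type and less RNA per cell cannot be told apart.

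The genes of the muscle fibre were by far the highest group in P2 over P3. The 66 genes of 4 lists (thick filament and M band, thin filament and Z disc, excitation and calcium handling, high-energy phosphate and oxygen store) made up 24.5, 21.6 and 22.8% in P2 and 0.103, 0.114 and 0.102% in P3 of all normalized counts. The means were 23.0 ± 1.49% and 0.106 ± 0.00637% (SD, n = 3), and the libraries did not overlap (exact permutation test, two-sided, p = 0.1, which is the lowest 3 against 3 allows). Muscle P1 lay between, with 0.604 to 0.933%. Every gene of these 4 lists that was tested, 16 of 16, 26 of 26, 17 of 17 and 7 of 7, was a DEG higher in P2, against 13.7% of all genes. Without P2 replicate 2 all of them remained DEGs.

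The upstream sequences of 4 of these genes are shown because their promoters share a short element. They are the 4 with the largest fold change among genes of the 4 lists whose 250 bases before the start hold it. Genes on a chromosome that had been set aside were not ranked. Bases are in lower case, 5′ to 3′ on the strand of the gene, from RefSeq on GRCm38.p6, and end at the base before the start annotated there. For Acta1 and Atp2a1 that start differs from the one in the gene positions printed further below. A check of the bases after the start against annotated transcripts of the gene succeeded for 3 of the 4. Capitals mark CAGCTG, a form of the E-box (CANNTG) that myogenic bHLH factors are known to bind.
Mybpc1 (chr10:88605153-88605402, minus strand): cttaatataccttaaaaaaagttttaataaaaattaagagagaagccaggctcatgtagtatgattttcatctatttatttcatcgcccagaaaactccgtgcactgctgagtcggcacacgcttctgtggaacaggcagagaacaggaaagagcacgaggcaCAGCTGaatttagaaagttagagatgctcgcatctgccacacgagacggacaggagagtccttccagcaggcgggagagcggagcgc
Myl1 (chr1:66945057-66945306, minus strand): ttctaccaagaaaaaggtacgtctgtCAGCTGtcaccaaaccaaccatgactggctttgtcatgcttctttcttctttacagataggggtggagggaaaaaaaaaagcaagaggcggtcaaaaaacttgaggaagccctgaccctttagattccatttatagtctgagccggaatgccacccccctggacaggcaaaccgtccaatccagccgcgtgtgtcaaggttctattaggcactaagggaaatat
Atp2a1 (chr7:126463074-126463323, minus strand): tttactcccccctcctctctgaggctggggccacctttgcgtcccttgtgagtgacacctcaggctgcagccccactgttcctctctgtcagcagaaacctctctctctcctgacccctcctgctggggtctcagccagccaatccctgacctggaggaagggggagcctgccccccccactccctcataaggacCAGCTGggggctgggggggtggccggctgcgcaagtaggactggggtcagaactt
Acta1 (chr8:123894776-123895025, minus strand): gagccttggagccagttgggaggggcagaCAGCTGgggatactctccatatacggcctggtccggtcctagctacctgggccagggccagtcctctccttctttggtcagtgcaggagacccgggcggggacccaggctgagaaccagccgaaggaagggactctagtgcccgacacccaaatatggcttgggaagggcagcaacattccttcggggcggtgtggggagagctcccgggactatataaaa
CAGCTG, which reads the same on both strands, was in 25 of the 59 promoters found for 46 of the 66 genes (42.4%) and in 4271 of all 32851 promoters in the table (13%). The looser CANNTG, of which every CAGCTG is an instance, was in 83.1% against 66.2%, TATAAA in 15.3% against 12.4%, CATTCC, the core read by TEAD factors, in 20.3% against 12.6% and GGAAGT, an ETS core, in 10.2% against 19.7%. Among promoters of the markers of other cells CAGCTG was in 5 of 16 for fibro-adipogenic progenitors (31.2%), 3 of 9 for mural cells and 2 of 13 for endothelial cells. Some genes have several promoters in the table that overlap, and a match is a string of letters and not a bound site. The element lay 87, 224, 55 and 221 bases upstream of the RefSeq start in the order printed. Tnnc2, the gene of largest fold change, has no CAGCTG in its window.

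In the thin filament, Acta1 (chr8:123891769-123894751), the skeletal muscle α-actin, was at 1030840.0, 1275860.0 and 1125390.0 in P2 and 889, 1730.3 and 757 in P3 (log2 fold change 10.08, SE 0.32, adjusted p = 9.09e-08). Tnnc2 (chr2:164777161-164779967), the calcium-binding troponin C of fast fibres, was at 914956, 272643 and 273561 in P2 and 157, 337 and 122 in P3 (log2 fold change 11.09, SE 0.52, adjusted p = 7.85e-07), the largest fold change among DEGs with a mean of at least 100 and no overlap. Its replicate 1 of P2 was more than 3 times the other two, yet all 3 were far above P3. The fast troponins beside it followed the same order. Tnnt3, which binds tropomyosin, was at 428844, 212460.0 and 234649 in P2 and 182, 421 and 135 in P3 (log2 fold change 10.31, SE 0.47, adjusted p = 6.09e-07). Tnni2, the inhibitory subunit, was at 164669, 203575 and 200838 in P2 and 132, 209 and 91.4 in P3 (log2 fold change 10.43, SE 0.33, adjusted p = 9.19e-08). Actn3, the α-actinin of fast fibre Z discs, had a log2 fold change of 10.15 and Tpm1, a tropomyosin that non-muscle cells also make, one of 6.01 from a P3 level of 3925 to 5079. The list of 26 genes had a median of 7.70, and its smallest fold change was 2.52.

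Thick filament genes showed the same separation, with a median of 7.78 over 16 genes. Myl1, the alkali light chain of fast myosin, was at 267083, 373078 and 337211 in P2 and 241, 346 and 201 in P3 (log2 fold change 10.29, SE 0.27, adjusted p = 5.83e-08). Myh4 (chr11:67238029-67260446), the IIb heavy chain, was at 74646, 71598 and 88995 in P2 and 70.2, 148 and 56.1 in P3 (log2 fold change 9.85, SE 0.37, adjusted p = 2.09e-07). Titin (Ttn, chr2:76703980-76982547), the giant spring of the sarcomere, was at 198508, 11846 and 99927 in P2 and 62.4, 149.6 and 45.1 in P3 (log2 fold change 9.66, SE 1.22, adjusted p = 0.000283), with replicate 2 of P2 well below the other two. Myh1, the IIx heavy chain, varied among the P2 libraries too, at 59469.6, 5047 and 4437 in P2 and 8.16, 14.5 and 55 in P3 (log2 fold change 9.11, SE 1.10, adjusted p = 0.00022). Mylpf, Mybpc2 and Mybpc1 had log2 fold changes of 8.64, 9.88 and 10.44. The spread among P2 libraries was thus wide for some sarcomere genes and narrow for others, and in none did P2 and P3 overlap.

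Isoforms of both fibre types were involved. All 13 isoforms of fast fibres were higher in P2, with a median of 10.15, and so were 8 of 11 isoforms of slow fibres, with a median of 6.35. Myh7, the slow heavy chain, was at 715, 611 and 769 in P2 and 12.1, 18.1 and 11.9 in P3 (log2 fold change 5.56, SE 0.61, adjusted p = 0.000125). Tnnt1 and Tnnc1, the slow troponins T and C, had log2 fold changes of 5.97 and 6.67, and Csrp3, a Z disc protein of slow fibres and heart, one of 8.57. The exceptions were Casq2, Tpm3 and Atp2a2. Casq2, the calsequestrin of heart and slow fibres, was lower in P2, at 155, 96.6 and 106 in P2 and 6319, 686 and 1245 in P3 (log2 fold change -3.90, SE 0.68, adjusted p = 0.0018). Tpm3, which non-muscle cells share, was at 4691, 9669 and 6100.1 in P2 and 7466, 8017 and 5705 in P3 (adjusted p = 0.781). Atp2a2, the calcium pump of slow fibres and of many other cells, was at 313, 709.6 and 602 in P2 and 1073, 930.4 and 1113 in P3 (log2 fold change -1.02, SE 0.35, adjusted p = 0.0469), under the fold threshold. The developmental and cardiac isoforms were scarce: of 8 genes 4 passed the filter on low values. Actc1, cardiac α-actin, was a DEG at 1332, 1258 and 1239 in P2 and 11.1, 74.5 and 8.89 in P3 (log2 fold change 5.94, SE 0.88, adjusted p = 0.00069), and Myl4, Tnni3 and Myh8 were not. The other four were at 32.4 or less in every library, and Myh6, the heavy chain of the heart, was listed at 0 in all 6.

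Calcium handling and energy supply went with the sarcomere. Atp2a1 (chr7:126445858-126463108), the fast calcium pump of the sarcoplasmic reticulum, was at 173476, 203026 and 593024 in P2 and 229, 433 and 138 in P3 (log2 fold change 10.16, SE 0.76, adjusted p = 1.19e-05). Ryr1, the calcium release channel, was at 2199.6, 3061 and 2419 in P2 and 0.546, 13.1 and 3.2 in P3 (log2 fold change 9.14, SE 1.55, adjusted p = 0.00156). Its voltage sensor Cacna1s was at 8806, 5791 and 5394 in P2 and 2.73, 14.7 and 16.7 in P3 (log2 fold change 9.33, SE 0.81, adjusted p = 3.13e-05). In each of the 3 genes the P2 libraries were all above the P3 libraries. Pvalb, a calcium buffer of fast fibres, and Casq1, the calsequestrin of fast fibres, had log2 fold changes of 10.19 and 8.55. Ckm (chr7:19404776-19422841), the creatine kinase of muscle, was at 166300.0, 195979 and 188034 in P2 and 164, 239 and 131 in P3 (log2 fold change 10.04, SE 0.31, adjusted p = 7.82e-08). Mb (chr15:77015487-77050670), the oxygen store myoglobin, was at 12765, 21227 and 13068 in P2 and 24.8, 22.9 and 16.8 in P3 (log2 fold change 9.42, SE 0.30, adjusted p = 9.09e-08). The other 5 genes of the phosphate list were Ak1, Adssl1, Ampd1, Ckmt2 and Art1, at 6.88, 8.52, 9.21, 8.71 and 9.09.

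Genes of glycogen breakdown and glycolysis were higher in P2 in 18 of 21 cases, with a median of 4.56, and held 6.55, 7.67 and 6.86% in P2 and 0.378, 0.342 and 0.398% in P3 of all normalized counts. Aldoa (chr7:126795234-126800751), aldolase, was at 547347, 694761 and 611149 in P2 and 7000.3, 7665 and 7564 in P3 (log2 fold change 6.38, SE 0.15, adjusted p = 5.83e-08). Gapdh, often used as a reference gene, was at 288919, 333702 and 273911 in P2 and 8828, 8996 and 9200.3 in P3 (log2 fold change 5.05, SE 0.15, adjusted p = 7.69e-08). The muscle isoforms Eno3 (enolase β) and Pgam2 had log2 fold changes of 9.24 and 9.89, against 3.63 for Ldha and 3.29 for Pkm, which most cells use. The entry with the symbol Pgm1, a phosphoglucomutase, was the 1 member lower in P2, at 175, 81.5 and 111 in P2 and 702, 618 and 532 in P3 (log2 fold change -2.38, SE 0.34, adjusted p = 0.000587). Whether this entry is the phosphoglucomutase that muscle uses for glycogen was not tested. Of 8 glycolytic isoforms typical of other cells, 3 were lower in P2. Among them were the hexokinase Hk1 at 509, 361 and 329 in P2 and 2606, 1528 and 1483 in P3 (log2 fold change -2.20, SE 0.27, adjusted p = 0.000262) and the phosphofructokinase Pfkp, with a log2 fold change of -2.16. Hexokinase 2 (Hk2), the isoform that muscle also uses, was higher in P2 with a log2 fold change of 2.35 (adjusted p = 0.0258). That call was lost when P2 replicate 2 or 3 or P3 replicate 1 or 3 was left out (adjusted p = 0.0638 to 0.0859) and after rescaling to equal totals (adjusted p = 0.072).

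Mitochondrial genes split by genome. Of 24 nuclear genes of the respiratory chain 20 were higher in P2, with a median of 2.24. With equal totals 12 were, beside 1160 of all 13974 genes. Slc25a4, the ADP/ATP carrier of heart and muscle, was at 99565, 128891 and 107440.0 in P2 and 4132, 3786 and 4105 in P3 (log2 fold change 4.80, SE 0.14, adjusted p = 7.69e-08). The muscle isoform Cox6a2 was at 20636, 27545 and 22165 in P2 and 20.9, 48.3 and 11.5 in P3 (log2 fold change 9.93, SE 0.51, adjusted p = 1.43e-06). The general subunits Cox5a and Atp5b had log2 fold changes of 3.96 and 2.23. None of the 13 genes of the mitochondrial genome was a DEG, with a median of -0.18, and in all 13 the groups overlapped. Their summed level was 1.59 ± 0.517% of all normalized counts in P2 and 3.23 ± 0.393% in P3 (SD, n = 3), lower in every P2 library than in every P3 library (exact permutation p = 0.1), and with equal totals the median was -0.92 beside -1.09 over all genes. Of these, mt-Co3 was at 79307, 58830.0 and 41322 in P2 and 70323, 85697 and 62023 in P3 (adjusted p = 0.299) and mt-Co1 at 58707, 51438 and 35228 in P2 and 64653, 83749 and 55969.8 in P3 (adjusted p = 0.0906). Quantile normalization made 3 of the 13, mt-Co1, mt-Co3 and mt-Atp6, DEGs lower in P2.

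Regulators of the muscle programme were higher in P2 in 9 of 12 cases, with a median of 3.79. Myf6 (MRF4), the myogenic factor of mature fibres, was at 2519.7, 2753 and 3181 in P2 and 4.34, 1.64 and 4.47 in P3 (log2 fold change 9.37, SE 0.56, adjusted p = 3.33e-06). Myod1, the founding member of that family, was at 1016, 1009 and 1066 in P2 and 11.5, 13.9 and 8.31 in P3 (log2 fold change 6.42, SE 0.37, adjusted p = 2.84e-06). Myog was at 97, 192 and 189 in P2 and was listed at 0 in all 3 P3 libraries, so no fold is given. Smyd1, a methyltransferase needed for sarcomere assembly, was at 2763, 18859 and 3288 in P2 and 1.37, 7.36 and 1.58 in P3 (log2 fold change 10.55, SE 0.88, adjusted p = 2.48e-05). Mef2c, which acts with these factors, had a log2 fold change of 4.74. At the membrane the picture was mixed. In the dystrophin complex 5 of 11 genes were higher in P2, among them the α-sarcoglycan Sgca at 1684, 2136 and 1338 in P2 and 90.1, 48.3 and 116 in P3 (log2 fold change 4.39, SE 0.37, adjusted p = 2.75e-05). Dystrophin (Dmd) itself was at 1166, 700.4 and 154 in P2 and 1846, 1318 and 791 in P3 and did not pass (adjusted p = 0.179), nor did dystroglycan (Dag1, adjusted p = 0.344). Of 8 genes of the neuromuscular junction 3 were higher, including Rapsn with 5.42 and Dok7 with 3.39, and 1 was lower, the acetylcholine receptor subunit Chrnb1 (log2 fold change -4.37, SE 1.26, adjusted p = 0.0221). The Chrnb1 call was lost without any 1 of the P3 libraries (adjusted p = 0.0532 to 0.0691).

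**Figure D2:**
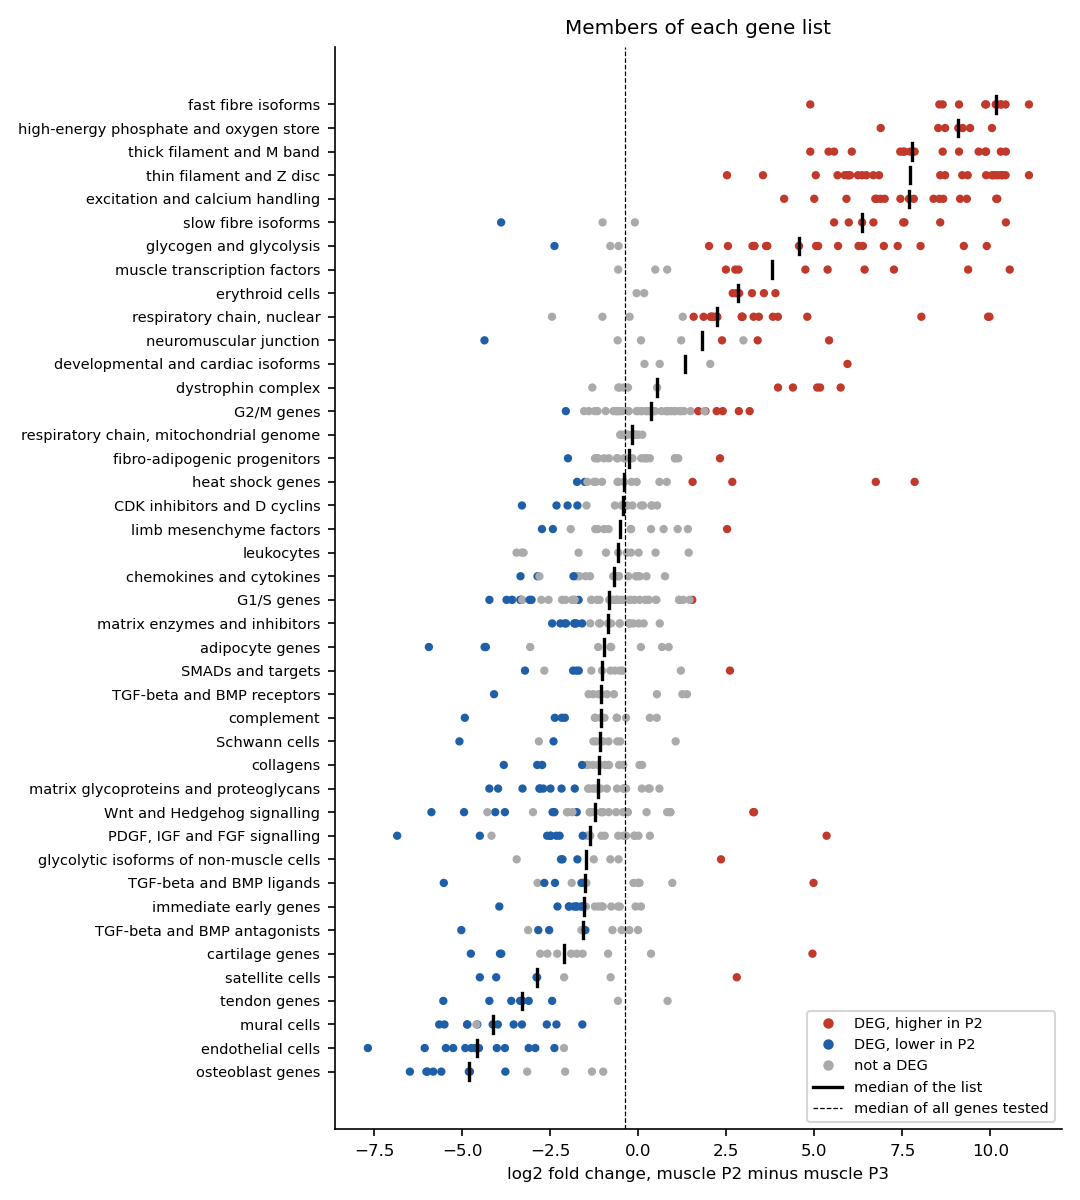
Log2 fold change (P2 minus P3, on log2(normalized count + 1)) of each tested member of the gene lists, without the sorting, sex-linked and ribosomal lists. Lists are ordered by their median (black tick), with DEGs higher in P2 in red, DEGs lower in P2 in blue and other genes in grey. Fibre lists stand at the top with medians up to 10.15, osteoblast, endothelial and mural lists at the bottom with medians of -4.80, -4.58 and -4.14, and the dashed line marks the median over all genes, -0.37.

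Satellite cells, the stem cells of muscle fibres, did not follow the fibre genes. Of 10 markers 7 passed the filter, 4 were lower and 1 higher in P2, with a median of -2.88, and the summed level was 0.00527, 0.00873 and 0.00477% in P2 and 0.0399, 0.0431 and 0.0329% in P3 of all normalized counts. Pax7, their defining factor, was listed at 0 in the 3 P2 libraries and at 3.28, 0.818 and 11.5 in P3. Calcr was at 16.5, 0 and 12.6 in P2 and 9.29, 5.66 and 3.83 in P3. Myf5 was at 0.717, 0 and 2.79 in P2 and 9.29, 5.73 and 14.7 in P3. All of these were near the floor in both groups, whereas P1 held Pax7 at 428, 242 and 228. Vcam1, an adhesion molecule, was at 195, 958 and 343 in P2 and 3244, 3991 and 2049 in P3 (log2 fold change -2.89, SE 0.50, adjusted p = 0.0018). Chodl was at 252, 2.03 and 72.4 in P2 and 644, 469 and 825 in P3 (log2 fold change -4.04, SE 1.31, adjusted p = 0.036), with replicate 2 of P2 the lowest. Megf10, a receptor of satellite cells, had a log2 fold change of -2.88 (adjusted p = 0.0301). The calls of Chodl and Megf10 were lost without any 1 of the P3 libraries (adjusted p = 0.0515 to 0.102). The member that was higher was Cdh15 (M-cadherin), which young fibres also carry, at 181, 385 and 229 in P2 and 46.4, 22.9 and 41.6 in P3 (log2 fold change 2.79, SE 0.47, adjusted p = 0.00152).

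Markers of fibro-adipogenic progenitors were strong on both sides. Of 20 genes 18 were not DEGs, with a median of -0.27, close to the -0.37 of all genes. Pdgfra (chr5:75152292-75198215) was at 4552, 2226 and 5160.2 in P2 and 5164, 5199 and 4213 in P3 (adjusted p = 0.348), and without P2 replicate 2 its log2 fold change was 0.0031. Dcn, the proteoglycan decorin, was at 83536, 49503 and 71296 in P2 and 95005, 121711 and 90481 in P3 (log2 fold change -0.61, SE 0.21, adjusted p = 0.0428). Gsn (gelsolin), an actin-severing protein, was at 294922, 160928 and 282619 in P2 and 307543, 367169 and 276159 in P3 (adjusted p = 0.268). Ly6a was at 10683, 7811 and 13364 in P2 and 25405, 20247 and 23387 in P3 (log2 fold change -1.14, SE 0.23, adjusted p = 0.00378). Cd34, shared with endothelium, was at 11097, 7408 and 10117 in P2 and 17542, 17097 and 15885 in P3 (log2 fold change -0.84, SE 0.19, adjusted p = 0.0069). Both were lower in all P2 libraries than in all P3 libraries but under the fold threshold. Rescaled to equal totals, 6 of the 20 genes were DEGs lower in P2, Ly6a and Cd34 among them. This was close to the share of all genes with equal totals, 4044 of 13974. As a share of all normalized counts the list held 2.54, 1.44 and 2.38% in P2 and 4.8, 5.39 and 4.72% in P3, with no overlap (exact permutation p = 0.1). Of the 2 DEGs, Dpp4, a marker of adventitial progenitors, was higher in P2 at 1362, 5902 and 3806 in P2 and 660.3, 771 and 483 in P3 (log2 fold change 2.32, SE 0.47, adjusted p = 0.00401). The call of Dpp4 was lost in a limma fit of all 27 libraries (adjusted p = 0.445). Ly6c1, which endothelium also expresses, was lower at 6516, 6289.7 and 8974 in P2 and 33878, 22829 and 30512 in P3 (log2 fold change -2.00, SE 0.20, adjusted p = 6.81e-05).

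Of 14 limb mesenchyme factors tested 1 was higher and 2 were lower in P2, no more than the shares of all genes. Tbx15, a T-box factor of limb mesenchyme that fast fibres also use, was higher in P2 at 3025, 3668 and 2447 in P2 and 468, 658 and 467 in P3 (log2 fold change 2.52, SE 0.36, adjusted p = 0.000599). The homeobox gene Meox2 was lower at 285, 601 and 503 in P2 and 2661, 2191 and 2319 in P3 (log2 fold change -2.43, SE 0.29, adjusted p = 0.000186), and its relative Meox1 too, with a log2 fold change of -2.74 (adjusted p = 0.00858). The other 11 genes, Prrx1 included, were not DEGs, and Msx1 had a log2 fold change of -0.97.

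On the P3 side, vessel genes were the clearest group. Of 14 endothelial markers 13 were DEGs lower in P2, with a median of -4.58, and the summed level was 0.0177, 0.0422 and 0.0183% in P2 and 0.687, 0.413 and 0.62% in P3 (exact permutation p = 0.1). Pecam1 (CD31, chr11:106654217-106750628), the junction molecule of endothelium, was at 498, 1649 and 1005 in P2 and 10537, 6067 and 8460.0 in P3 (log2 fold change -3.12, SE 0.45, adjusted p = 0.000589). Kdr, the main VEGF receptor, was at 270.3, 591 and 42.5 in P2 and 12429, 5900.3 and 8278 in P3 (log2 fold change -5.47, SE 1.03, adjusted p = 0.00274), and Flt1, the other, had a log2 fold change of -5.26 (adjusted p = 0.00548). Of the P2 libraries, replicate 2, the one with Cd200, was the highest in 10 of the 14 markers, Pecam1, Esam, Tie1 and Kdr among them, but not in Flt1 or Cldn5. Claudin 5 (Cldn5) was at 1.44, 5.07 and 76.5 in P2 and 2294, 1765 and 2459 in P3 (log2 fold change -7.68, SE 1.07, adjusted p = 0.000481). Erg did not pass the test (log2 fold change -2.11, SE 1.33, adjusted p = 0.241) but did without P2 replicate 2 (log2 fold change -3.45, adjusted p = 0.0474). No endothelial marker was listed at 0 in all libraries of a group. CD105 is itself an endothelial molecule, and what part cells of vessels had in the other differences was not tested.

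Mural cells, the pericytes and smooth muscle of vessel walls, had higher marker levels in P3 too. Of 13 markers 12 were lower in P2, with a median of -4.14 and a summed level of 0.0151, 0.0276 and 0.025% in P2 and 0.356, 0.268 and 0.357% in P3. Rgs5, a pericyte marker, was at 9.44, 961 and 233 in P2 and 8046, 5426 and 6941 in P3 (log2 fold change -5.66, SE 1.30, adjusted p = 0.00782). Acta2, smooth muscle actin, was at 75.2, 902 and 1059 in P2 and 10888, 8305 and 10936 in P3 (log2 fold change -4.58, SE 0.87, adjusted p = 0.00283). Pdgfrb, the receptor that recruits pericytes, was at 1572, 502 and 1232 in P2 and 5939, 4539.8 and 4582 in P3 (log2 fold change -2.33, SE 0.38, adjusted p = 0.0013). P2 replicate 1 held the least Rgs5 and Acta2, and no P2 library reached a P3 library. Cspg4 (NG2) was listed at 0 in P2 replicate 2 and did not pass the test (adjusted p = 0.0687), but without that library it was a DEG lower in P2 (log2 fold change -1.95, adjusted p = 0.00349). In P1 the mural share, 0.487 to 1.11%, was above that of P3, while the endothelial share, 0.0547 to 0.127%, was below it.

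The 10 genes with the largest difference in this direction, of those with a mean of at least 100 and no overlap, were read by name. Timp4 (chr6:115241892-115252205), an inhibitor of matrix metalloproteinases, was at 5.04, 3.02 and 12.2 in P2 and 6430.2, 3717 and 5808 in P3 (log2 fold change -9.56, SE 0.56, adjusted p = 2.88e-06). Gpihbp1, which anchors lipoprotein lipase to capillary walls, was at 2.37, 45.9 and 14.4 in P2 and 5809.9, 3038 and 5455 in P3 (log2 fold change -8.41, SE 1.24, adjusted p = 0.000687). Car4 (chr11:84957786-84966044), the carbonic anhydrase of capillary surfaces, was at 1.44, 0 and 1.89 in P2 and 1101, 585 and 946 in P3 (log2 fold change -8.79, SE 0.85, adjusted p = 5.56e-05). Mmrn1 (chr6:60924976-60989378), a multimerin of platelets and endothelium, was listed at 0 in all P2 libraries and at 998, 351 and 645 in P3. Akr1c14, an aldo-keto reductase, was listed at 0 against 522, 249 and 371, so neither is given a fold. The rest of the 10 were Eps8l2, Acsbg1, Ushbp1, Bdkrb2 and Gm21541, with log2 fold changes from -9.12 to -8.26 and P2 libraries between 0 and 90.6. The fatty acid carriers Fabp4 and Cd36, listed as adipocyte genes and also made by capillary endothelium, had log2 fold changes of -4.33 and -4.37, Fabp4 at 614, 3943 and 775 in P2 and 30979.7, 17339.5 and 28609 in P3. Adipoq, which only adipocytes make, was listed at 0 in P2 and at 33.6, 111 and 60 in P3, and 7 of the 10 adipocyte genes tested were not DEGs.

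**Figure D3:**
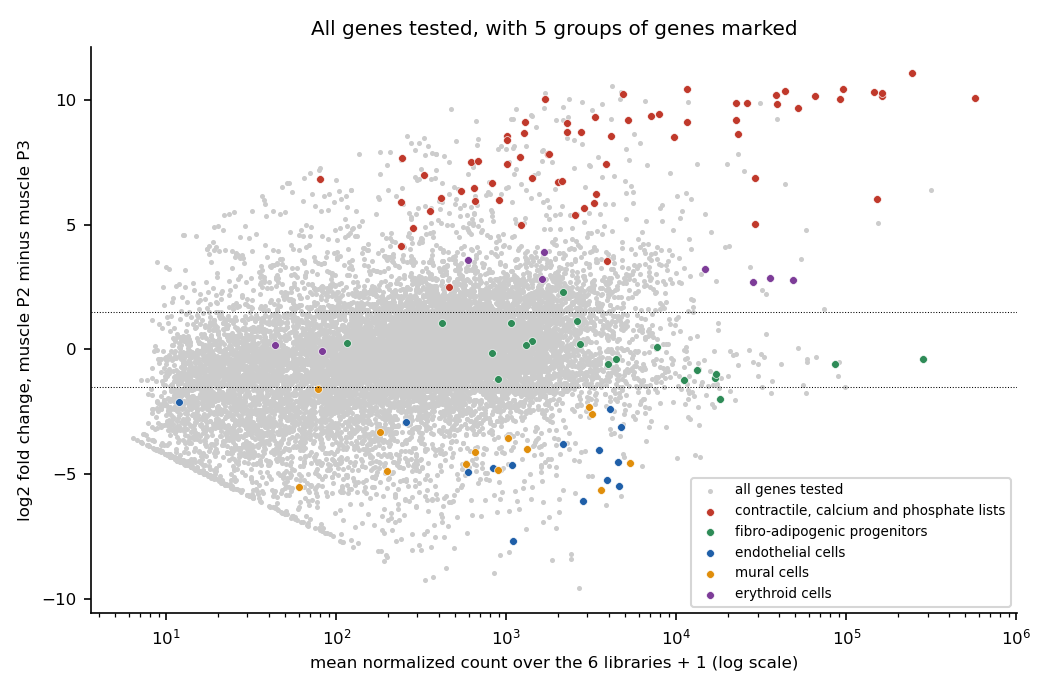
Log2 fold change (P2 minus P3) of the 13974 genes tested against their mean normalized count over the 6 libraries (+ 1, log scale), with 5 groups of genes in colour and dotted lines at ±1.5. The contractile, calcium and phosphate genes (red) lie between 2.52 and 11.09, the endothelial (blue) and mural (orange) markers below 0, and the fibro-adipogenic markers (green) around the cloud of all genes.

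Tendon and bone genes were lower in P2 as well. Of 10 tendon genes 8 were lower, with a median of -3.30. Tnmd (tenomodulin) was at 316, 61.3 and 168 in P2 and 2085, 1606 and 1815 in P3 (log2 fold change -3.61, SE 0.50, adjusted p = 0.000457). Fmod (fibromodulin), which binds collagen fibrils, was at 1519.6, 1193 and 1180.4 in P2 and 29637, 20332 and 23697 in P3 (log2 fold change -4.23, SE 0.27, adjusted p = 5.07e-06). Thbs4, a thrombospondin of tendon and muscle, had a log2 fold change of -3.12. Scx, the factor that specifies tendon, was at 52.5, 10.1 and 53.8 in P2 and 20, 6.54 and 35.8 in P3 and did not pass (adjusted p = 0.504), nor did Egr1, whose P3 replicate 1 was below all other libraries. Of 12 osteoblast genes 8 were lower, with a median of -4.80. Spp1 (osteopontin) was at 34.5, 31.5 and 210.4 in P2 and 4379.7, 3679 and 3899.9 in P3 (log2 fold change -5.99, SE 0.68, adjusted p = 0.000147). Ibsp, bone sialoprotein, was at 9.4, 12 and 80.8 in P2 and 2138, 2433 and 1539 in P3 (log2 fold change -6.49, SE 0.71, adjusted p = 0.000122). Alpl, alkaline phosphatase, was at 171, 444 and 367 in P2 and 4531, 3549.9 and 4537 in P3 (log2 fold change -3.78, SE 0.34, adjusted p = 3.8e-05). Sp7 (osterix), the osteoblast factor, was listed at 0 in all P2 libraries and at 30.6, 59 and 58.9 in P3. Runx2 overlapped between the groups, at 1.4, 17 and 172 in P2 and 30.8, 327 and 53.1 in P3 (adjusted p = 0.28). Bglap had log2 fold change -6.02 and its near-identical neighbour Bglap2 -5.83, and how reads were divided between them is uncertain. In P1 the libraries lay above all P3 libraries for Ibsp (2784 to 6951) and Bglap (4030.4 to 13336), and below them for Alpl (1224 to 1729). In the cartilage list 3 of 12 genes were lower, Comp with -3.90, Col11a1 with -4.76 and Col11a2 with -3.93, and Sox6, a factor that fast fibres use too, was higher with 4.94.

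Extracellular matrix genes leaned to P3, without a DEG in the other direction. In the table as deposited, of 17 collagens 4 were lower in P2, of 27 matrix glycoproteins and proteoglycans 9, and of 23 matrix enzymes and inhibitors 8, with medians of -1.13, -1.16 and -0.86. The fibril collagens Col1a1, Col1a2 and Col3a1 were under the threshold, Col1a1 at 17146, 19187 and 27530.3 in P2 and 53399, 59693 and 41318 in P3 (log2 fold change -1.29, SE 0.24, adjusted p = 0.00283), although none of their P2 libraries reached a P3 library. With equal totals all 3 were DEGs, with log2 fold changes of -2.03, -2.17 and -1.82. The DEGs lower in P2 then numbered 13 of 17 collagens and 17 of 27 glycoproteins and proteoglycans, beside 4044 of all 13974 genes. Without P2 replicate 3 there were 7 collagens. Col12a1, a collagen of tendon and perimysium, was at 449, 158 and 93.1 in P2 and 2942, 2512 and 2571 in P3 (log2 fold change -3.82, SE 0.50, adjusted p = 0.000336). Sparcl1, a matricellular protein, was at 2571, 2382 and 4438 in P2 and 23212, 17833 and 22010.5 in P3 (log2 fold change -2.80, SE 0.30, adjusted p = 0.000113), and Timp3, an inhibitor of metalloproteinases, had a log2 fold change of -1.82. Adamts1, a protease that cleaves aggrecan, had a log2 fold change of -2.09.

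CD105 is a co-receptor of the TGF-β family, so the genes of that pathway were read from ligand to target. Of 14 ligands 5 were lower in P2 and 1 higher. Gdf10 (BMP3b) was at 611, 266 and 676 in P2 and 2301, 3869 and 3209.8 in P3 (log2 fold change -2.67, SE 0.41, adjusted p = 0.000843). Bmp6, which P2 barely held, was at 0, 8.04 and 23.6 in P2 and 297, 234 and 312 in P3 (log2 fold change -5.53, SE 1.01, adjusted p = 0.00238), and Bmp5 had a log2 fold change of -2.37. Bmp4 was at 190.4, 309 and 265 in P2 and 789.7, 646 and 811 in P3 (log2 fold change -1.57, SE 0.26, adjusted p = 0.00145) and fell under the fold threshold without P2 replicate 1 (-1.38). The call of Inhba, an activin subunit (log2 fold change -1.62, SE 0.56, adjusted p = 0.047), was lost in 5 of the 6 fits that left out a library. Myostatin (Mstn), the muscle's own inhibitor of growth, was higher in P2, at 1481, 839 and 1372 in P2 and 62.2, 26.5 and 30.6 in P3 (log2 fold change 4.97, SE 0.58, adjusted p = 0.000178). The other 8 ligands, all 3 isoforms of TGF-β among them, were not DEGs.

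Of 12 receptors 1 was a DEG, Eng, whose call the CD105 gate fixed, and none of the other 11 was called. Another receptor was called, in addition to Eng, without P2 replicate 1 (higher in P2), without P2 replicate 2 or 3, or without P3 replicate 1 (lower). Tgfbr2, the type II receptor of TGF-β, was at 2741, 1189.6 and 2619 in P2 and 4725, 3805 and 5002 in P3 (log2 fold change -1.13, SE 0.30, adjusted p = 0.0165). Acvrl1 (ALK1), the endothelial type I receptor that endoglin assists, was at 544, 783 and 1118 in P2 and 2416, 1514 and 2471 in P3 (log2 fold change -1.41, SE 0.48, adjusted p = 0.043). Both were lower in every P2 library than in every P3 library and under the fold threshold. With equal totals both were DEGs (-1.87 and -2.15), as were 7 of the 12 receptors with Eng counted. Over all 13974 genes 1160 were then higher and 4044 lower in P2. Of 10 antagonists 4 were lower in P2, among them Chrdl1 at 193, 307 and 313 in P2 and 1433, 1959.7 and 1297 in P3 (log2 fold change -2.54, SE 0.28, adjusted p = 0.000125), and 2 were lower without P3 replicate 2. The Id genes, which BMP signals switch on, were lower in P2 in 3 of the 4 tested: Id1 was at 468, 509.9 and 164 in P2 and 3170.4, 3349 and 3016 in P3 (log2 fold change -3.22, SE 0.40, adjusted p = 0.000253), Id2 had a log2 fold change of -1.76 and Id3 one of -1.86. Smad3, which carries the TGF-β signal, was higher in P2 at 2405, 1474 and 2362 in P2 and 211, 431 and 409.7 in P3 (log2 fold change 2.60, SE 0.37, adjusted p = 0.000597).

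Other signalling lists were read in the same way. Of 24 genes of PDGF, IGF and FGF signalling 8 were lower and 1 was higher in P2, with a median of -1.37. Igf2 was at 114, 115 and 277 in P2 and 1051, 682 and 936 in P3 (log2 fold change -2.50, SE 0.46, adjusted p = 0.00254). Fgf13, an intracellular FGF that acts on sodium channels, was higher at 1064, 1321 and 748 in P2 and 28.6, 19.7 and 24.6 in P3 (log2 fold change 5.34, SE 0.41, adjusted p = 1.41e-05). Of 31 Wnt and Hedgehog genes 7 were lower, 4 without P3 replicate 2, among them the secreted inhibitor Wif1 at 90.6, 6.98 and 3.01 in P2 and 957, 933 and 666 in P3 (log2 fold change -5.88, SE 0.95, adjusted p = 0.00114), and 2 were higher. These were Wnt4, at 230.0, 457 and 400.2 in P2 and 40.4, 42.6 and 25.6 in P3 (log2 fold change 3.26, SE 0.48, adjusted p = 0.000686), and Axin2, a target of the canonical pathway, with a log2 fold change of 3.28 (adjusted p = 0.00339). Of 20 chemokines and cytokines 3 were lower, about the share of all genes, and 5 without P2 replicate 3. Cxcl12, which retains blood cells in their niches, was at 1581, 1709.7 and 1824 in P2 and 13143, 11158 and 13038 in P3 (log2 fold change -2.87, SE 0.17, adjusted p = 3.21e-06). Of 13 complement genes 4 were lower and none was higher.

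Immediate early genes are switched on within minutes of a stimulus, and heat shock genes encode chaperones. Of 21 immediate early genes 11 were lower in P2 and none was higher, with a median of -1.54; without P2 replicate 3 or P3 replicate 2 the DEGs lower in P2 were 6. Fos was at 20554, 12801 and 16214 in P2 and 60489, 59222 and 46800.0 in P3 (log2 fold change -1.77, SE 0.20, adjusted p = 0.000132). Btg2, an antiproliferative gene, had a log2 fold change of -2.30. Junb was at 10018, 9048 and 7651 in P2 and 27036, 33909.9 and 18935 in P3 (log2 fold change -1.55, SE 0.24, adjusted p = 0.000816), a call lost for its fold without P2 replicate 3 or P3 replicate 2 (-1.44 and -1.35). The inducible HSP70 genes Hspa1a and Hspa1b, near-identical copies between which reads may be divided, had log2 fold changes of -1.74 and -1.52. Hspa1b fell under the fold threshold without P2 replicate 3 or P3 replicate 2 (-1.41 and -1.31). Of 17 heat shock genes these 2 were the DEGs lower in P2, and their number was 4 without P2 replicate 1, 5 without P3 replicate 3 and 1 without P2 replicate 3 or P3 replicate 2. The 4 heat shock genes higher in P2 were the small chaperones of muscle Hspb6, Hspb7, Hspb8 and Cryab. Hspb6 was at 39042, 53397 and 45618 in P2 and 197, 207 and 189 in P3 (log2 fold change 7.85, SE 0.24, adjusted p = 7.69e-08), and Hspb7 and Hspb8 had 6.74 and 2.67. Cryab had 1.54 and fell under the fold threshold under each of the 3 rescalings (0.80 to 1.33) and without P2 replicate 2 (1.46).

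The genes of highest level among those lower in P2 were general ones. They were Hspa1b, Hspa1a, Fos, Junb and Cyr61 of the stress and early response, the cytoskeletal Actg1 and Tmsb4x, the class I histocompatibility gene H2-D1, Ly6c1 and the protease inhibitor Cst3. Cst3 was at 5545, 5599.5 and 6132 in P2 and 27420.4, 26099.6 and 26131 in P3 (log2 fold change -2.21, SE 0.12, adjusted p = 1.94e-06), and H2-D1 had a log2 fold change of -2.02. Actg1, non-muscle γ-actin, was at 13291, 20746 and 16204 in P2 and 45693, 49207 and 45424 in P3 (adjusted p = 0.000132), with a log2 fold change just past the threshold, under which it fell without P2 replicate 1 or 3 or P3 replicate 2 (-1.35 to -1.49). On the P2 side the 10 highest were Acta1, Aldoa, Tnnc2, Myl1, Atp2a1, Gapdh, Tpm1, Tnnt3, Tnni2 and Ckm, all described above. The 50 highest genes of a library held 35.9 to 39.0% of all normalized counts in P2 and 19.7 to 23.6% in P3. The largest fold changes not yet given were those of Myoz1, a Z disc protein (10.34), Smpx, a small muscle protein (10.23), Rpl3l, a ribosomal protein of muscle (10.31), and Lrrc14b (10.27).

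Blood cells were checked although CD45+ cells had been gated out and the Rag1 allele removes mature B and T lymphocytes. Of 25 leukocyte markers 11 passed the filter and none was a DEG (1 higher and 2 lower without P2 replicate 2), the summed level being 0.00256, 0.00497 and 0.00679% in P2 and 0.00704, 0.00497 and 0.00578% in P3 (exact permutation p = 0.4). Erythroid genes, whose cells do not carry CD45 when mature, were higher in P2 in 7 of 9 cases, with a median of 2.83 and a summed level of 1.6, 1.2 and 0.938% in P2 and 0.386, 0.252 and 0.235% in P3. Hbb-bs, adult β-globin, was at 79209, 64801 and 43955 in P2 and 11605, 7999 and 6327 in P3 (log2 fold change 2.86, SE 0.47, adjusted p = 0.00126). Slc4a1, the anion exchanger of red cells, was at 3138, 2763 and 3343 in P2 and 329.7, 98.3 and 269 in P3 (log2 fold change 3.89, SE 0.47, adjusted p = 0.000229). Klf1 and Epor did not pass (adjusted p = 0.984 and 0.895), and no erythroid gene was listed at 0 in a whole group. The globin pairs are near-identical, so the division of reads between Hba-a1 and Hba-a2 is uncertain. Of 10 Schwann cell genes 2 were lower in P2, 4 without P2 replicate 1 and 1 without P2 replicate 2 or P3 replicate 2. One was Cdh19, a cadherin of Schwann cells, which was listed at 0 in all P2 libraries and at 30.6, 21.6 and 53.7 in P3. Sox10 and Gfra3, which did not pass the filter on low values, were listed at 0 in P2. In P3 Sox10 was at 1.09, 22.1 and 8.95 and Gfra3 at 0, 0.818 and 2.56, so Gfra3 was near the floor in both groups. What part erythroid or nerve cells had in the differences was not tested.

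**Figure D4:**
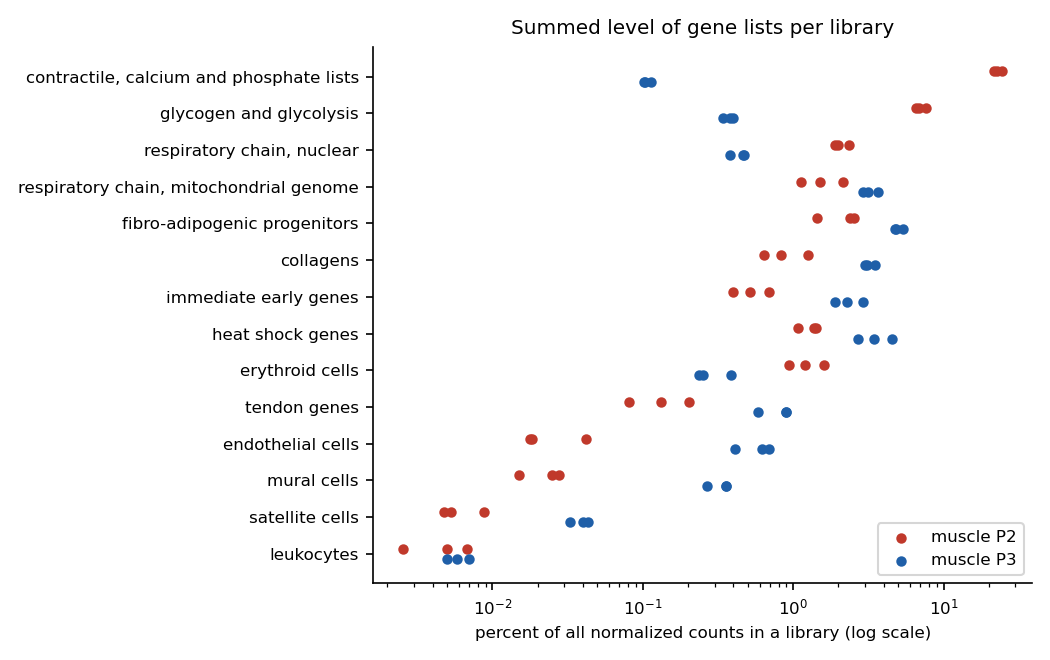
Percent of all normalized counts (log scale) held by 14 gene lists in each of the 3 P2 libraries (red) and 3 P3 libraries (blue). The fibre, glycolysis and erythroid lists are higher in every P2 library, the endothelial list lies at 0.0177 to 0.0422% in P2 and 0.413 to 0.687% in P3, and the leukocyte list overlaps.

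Cell cycle genes differed in few cases. Of 43 G1/S genes 8 were lower and 1 was higher in P2, with a median of -0.83. That 8 became 13 without P2 replicate 2, and 2, 5 and 2 without P3 replicates 1, 2 and 3. Mcm4, a subunit of the replicative helicase, was at 77.9, 373 and 225 in P2 and 609, 678 and 550.0 in P3 (log2 fold change -1.70, SE 0.50, adjusted p = 0.0245), a call lost without P2 replicate 1 (log2 fold change -1.07) or any 1 of the P3 libraries (adjusted p = 0.0569 to 0.0759). Of 47 G2/M genes 6 were higher and 1 was lower, with a median of 0.36 beside -0.37 over all genes (-0.34 beside -1.09 with equal totals), and the 6 became 3 without P3 replicate 1 and 2 without P3 replicate 2. Of 16 D cyclins and CDK inhibitors 4 were lower and none was higher, 2 without P3 replicate 2, among them cyclin D2 (Ccnd2) at 983, 417 and 488 in P2 and 2573, 2393 and 2138 in P3 (log2 fold change -2.01, SE 0.31, adjusted p = 0.000901).

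The same gates were set in periosteum and bone marrow, which allows the question of whether P2 minus P3 was the same there. It differed from periosteum in 2224 of 18443 genes (12.1%), 1246 with a higher (6.76%) and 978 with a lower (5.3%) difference in muscle, and from bone marrow in 3533 (19.2%), 1186 higher (6.43%) and 2347 lower (12.7%). Leaving out muscle P3 replicate 2 brought the first count to 1438, and leaving out bone marrow P2 replicate 3 brought the second to 2323. Over all genes the median of this difference was -0.48 against periosteum and -0.999 against bone marrow. The share of all genes called within periosteum or within bone marrow was not computed. Counts of DEGs within those tissues are therefore not given. For the sorting genes no difference was called. That of Eng was 2.43 (SE 1.62, adjusted p = 0.328) against periosteum and 0.08 (SE 1.62, adjusted p = 0.978) against bone marrow. That of Cd200 was 1.85 (SE 1.39, adjusted p = 0.393) and -2.56 (SE 1.39, adjusted p = 0.199). Fibre genes were among those with a higher difference in muscle. Of the 66 genes in the contractile, calcium and phosphate lists 50 had a higher difference in muscle than in periosteum and 40 a higher one than in bone marrow, and none a lower one. Their P2 minus P3 medians in periosteum were 0.36 to 1.16 and in bone marrow 0.69 to 2.84, against 7.68 to 9.09 in muscle. Tnni2 in bone marrow stood at 1.07 ± 1.85 in P2 and 2.79 ± 2.42 in P3 (SD, n = 3), a difference of 11.32 (SE 1.78, adjusted p = 0.000109). Tcap, the Z disc cap of titin, stood in periosteum at 17.3 ± 13.1 in P2 and 169 ± 163 in P3, a difference of 11.82 (SE 1.53, adjusted p = 2.51e-05).

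The difference of cartilage genes was not the same in muscle and periosteum. Their median was 3.19 in periosteum against -2.11 in muscle. The difference itself was called, lower in muscle, for 8 of 12, against 5.3% of all genes. The median of the endothelial genes was below 0 in all 3 tissues, at -6.96 in periosteum and -3.51 in bone marrow. The difference between tissues was called for 2 genes, both less low in muscle than in periosteum, and for 1 gene against bone marrow. The median of the erythroid genes was above 0 in all 3 tissues, at 4.68 in periosteum and 4.34 in bone marrow against 2.83 in muscle. Tendon genes had a lower difference in muscle than in bone marrow for 5 of 10 genes. Single differences were ranked among called genes with a mean of at least 100 over the 6 muscle libraries. The largest against periosteum were those of Car3, a carbonic anhydrase of slow fibres and fat (11.98 (SE 1.03, adjusted p = 1.27e-07)), and Eps8l2, an actin regulator (-13.68 (SE 1.88, adjusted p = 4.58e-05)). Eps8l2 was lower in P2 in muscle (-9.12) and higher in P2 in periosteum, at 1998 ± 2057 in P2 and 260.3 ± 288 in P3, where the SD exceeded the mean. Against bone marrow the largest were those of Cox6a2 (11.78 (SE 1.75, adjusted p = 5.58e-05)) and Acsbg1, an acyl-CoA synthetase (-14.22 (SE 2.10, adjusted p = 5.27e-05)). In bone marrow Cox6a2 was listed at 0 in P2 and stood at 3.92 ± 3.43 in P3. Acsbg1 stood there at 82.5 ± 67.1 in P2 and 1.48 ± 2.56 in P3, and in muscle P3 it was at 446, 580 and 4010. The bone marrow values of a few units rest on single reads.

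**Figure D5:**
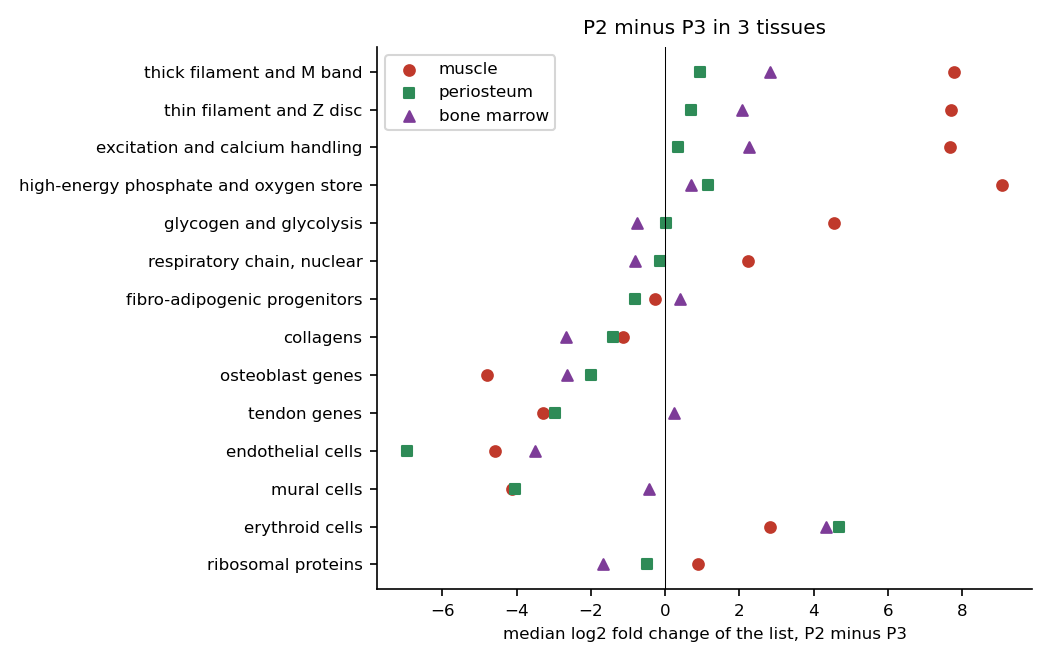
Median log2 fold change (P2 minus P3) of 14 gene lists in muscle (circles), periosteum (squares) and bone marrow (triangles). The thick filament list has a median of 7.78 for muscle against 0.94 for periosteum and 2.84 for bone marrow, and the endothelial list is below 0 in all 3 tissues.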

How the data were processed

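The deposited values were normalized counts per gene, a signal that the authors made by trimming with Trim Galore, aligning with STAR and scaling with DESeq2. The libraries were SMART-Seq v4 and Nextera XT libraries of sorted cells, sequenced on an Illumina HiSeq. Versions, genome build, annotation and read counter are not given in the sources used here. Identifiers matched GENCODE M21 (GRCm38) for 29811 of 30154 entries, and positions were taken from it. Low values in part came in steps of 1 read (46.2 to 87.7% of values below 10 were whole within 0.01 reads), too few to recover counts, so no count test was run.

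Values were tested as log2(normalized count + 1) with limma 3.58.1 in R 4.3.3 (eBayes with trend), in 1 fit over the 9 muscle libraries, P1 lending only its spread. Genes needed a value of 10 in 3 of the 6 libraries. P-values were adjusted by Benjamini-Hochberg over all genes tested. DEGs had an adjusted p of less than 0.05 with a log2 fold change of more than 1.5 either way. A fold change on this scale understates that of low genes. Tissues were compared by an interaction in a fit over all libraries, on 18443 genes. Summed shares were compared by two-sided exact permutation of the libraries. In simulated data with 200 of 13974 genes changed by 3 on the log2 scale, 108 were called, with 5 others.

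The 45 gene lists and the tests were chosen with earlier results of these data known. Genes were named if they were sorting genes, were among the 6 highest of a list or called against its majority, had 1 of the 10 largest fold changes in a direction with a mean of 100 or more and no overlap, or were among the 10 highest DEGs. For tissue differences, the largest in each direction were named among called genes with a mean of 100 or more in muscle. Others were chosen after their values were seen, and some genes are not reported here. The 185 entries with a repeated symbol were not matched to lists. Every column was assigned to a library, and 0 columns were left out. Alternatives were another pseudocount, filter, normalization, set of libraries, threshold or block, and leaving out each library.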

Additional observations from a re-analysis of the deposited data

Results flagged for a closer look

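The difference between P2 and P3 was itself different between tissues, by the interaction test, in 2224 genes for muscle against periosteum and in 3533 for muscle against bone marrow. The genes given here have the largest interaction in each direction among called genes with a mean of at least 100 over the 6 muscle libraries. Values are log2 differences of P2 minus P3 in muscle less the same in the other tissue.

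Against periosteum, Eps8l2 stood at -13.68 (SE 1.88, adjusted p = 4.58e-05). Esyt2, an extended synaptotagmin of membrane contacts, was at -9.86 (SE 2.89, adjusted p = 0.0275), and Sema3a, a repellent of axons, at -9.84 (SE 2.14, adjusted p = 0.00404). Both were lower in P2 in muscle and higher in P2 in periosteum. In the other direction Car3 was at 11.98 (SE 1.03, adjusted p = 1.27e-07), Tcap at 11.82 (SE 1.53, adjusted p = 2.51e-05) and Hspb2, a small heat shock protein of muscle, at 11.75 (SE 1.65, adjusted p = 5.43e-05).

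Against bone marrow, Acsbg1 was at -14.22 (SE 2.10, adjusted p = 5.27e-05), Npy1r, a receptor of neuropeptide Y, at -14.07 (SE 1.98, adjusted p = 3.08e-05), and Eps8l2 at -14.01 (SE 1.88, adjusted p = 1.83e-05). Cox6a2 was at 11.78 (SE 1.75, adjusted p = 5.58e-05), Tnni2 at 11.32 (SE 1.78, adjusted p = 0.000109) and Eno3 at 10.63 (SE 1.86, adjusted p = 0.000324), the last 3 being genes of muscle fibres. In bone marrow Npy1r stood at 178 ± 205 (SD, n = 3) in P2 and was listed at 0 in P3.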

How the results depend on the processing

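The call of 120 of 179 named genes kept its side of the threshold and its direction under every 1 of the 19 alternatives in which it was tested; 11 named genes had a mean under 50 and were not in the fit with that filter. Fitting all 27 libraries gave 2122 DEGs, 1087 higher and 1035 lower in P2, against 1915 and 2010. Among the named genes whose calls that fit lost were Dpp4, Smad3, Mef2c, Axin2 and Cdh15 (adjusted p = 0.445, 0.283, 0.141, 0.161 and 0.332). Lost too were Meox1, Meox2 and Chrdl1 (adjusted p = 0.224, 0.252 and 0.204). Equal totals gave 1160 and 4044. Quantile normalization gave 1776 and 2017, and no filter on low values 1870 and 2342. Same-numbered P2 and P3 libraries did not deviate together (r = -0.0675 to 0.00547), so the numbers are not taken to pair them, and with the replicate block the counts were 1868 and 1987, together 3855. Leaving out each library in turn gave 3159 to 4252 DEGs, 1700 to 1974 higher and 1459 to 2350 lower. For the difference from periosteum this range was 1438 to 2962, with 561 to 1217 lower. For that from bone marrow it was 2323 to 4131, with 1383 to 2897 lower, and quantile normalization gave 1070 lower. The block gave 2158 and 3473 genes.

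Some medians of lists changed sign: the dystrophin complex was at -0.20 with equal totals and -0.18 without P2 replicate 2, limb mesenchyme factors at 0.36 with a mean of at least 50, heat shock genes at 0.011 without P3 replicate 2, G2/M genes at -0.34 with equal totals (all genes at -1.09) and leukocytes at 0.025 under quantile normalization. With 1 library left out the first ranged from -0.18 to 1.29 and heat shock genes from -0.69 to 0.011. Genes that were not DEGs also changed sign. With equal totals Prrx1 was at -0.021, Tnni3 at -0.0094, Myh8 at -0.50 and Epor at -0.55. Scaled outside the fibre lists, Myh8 was at -0.017 and Epor at -0.038. Klf1 was at 0.39 with a pseudocount of 5 and 0.68 under quantile normalization. Leaving out 1 library gave a log2 fold change of -0.57 to 0.59 for Epor, -1.57 to 2.12 for Klf1, -0.43 to 0.67 for Myh8, -0.60 to 0.0031 for Pdgfra, -0.60 to 2.14 for Tnni3 and -0.39 to 0.14 for Tpm3. The tissue difference of Ptprc was 0.17 against periosteum and 0.24 against bone marrow under quantile normalization, and -0.58 to 0.59 against bone marrow with 1 library left out. That of Eng against bone marrow was -0.041 with a pseudocount of 5 and -0.99 to 0.83 with 1 library left out. The causes were not tested. Values of a few units rest on single reads, and with 3 libraries a group no permutation p goes below 0.1.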

Other observations

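Genes of ribosomal proteins leaned to P2 in muscle in the table as deposited. Of 76 tested, 5 were DEGs, all higher in P2, with a median of 0.89, and 71 had groups that did not overlap. None was a DEG higher in P2 with equal totals, under quantile normalization or scaled outside the fibre lists, where the medians were 0.15, 0.40 and 0.68 beside -1.09, -0.28 and -0.57 over all genes. Their summed level was 2.04, 2.2 and 2.2% in P2 and 1.89, 1.84 and 1.85% in P3 of all normalized counts. In periosteum the median of P2 minus P3 was -0.49 and in bone marrow -1.67. The difference was called higher in muscle for 28 and 71 genes, against 6.76% and 6.43% of all genes.

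The G2/M genes, with few DEGs in muscle, had a median of 2.49 in periosteum. Of 52 genes the difference was called lower in muscle for 5 and higher for 1, against 5.3% and 6.76% of all genes. The Y-linked genes, 4 in the table, were detected in all 6 libraries, and none was a DEG between P2 and P3.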
